A study of Gallus gallus with 8 samples.

Results

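The dorsal skin of the chick embryo at embryonic day 9, Hamburger and Hamilton stage 35 (H&H 35), was compared between its layers, the mesenchyme and the epithelium. The members were the 4 RNA-Seq libraries labelled H&H 35, 2 of epithelium and 2 of mesenchyme, out of 8 in the series, and the 11155 of 14642 gene columns that reached 1 RPKM in at least 2 of the 8 libraries. RPKM counts the reads of a gene relative to its transcript length and to the reads mapped in the library, so levels of different genes can be set beside each other. The comparison asks which genes each layer of the skin expressed while the feather buds grew out. The rule for the members used no tissue difference, but the members and the gene lists were chosen with earlier results of these data known. The gene just inside the filter had a second-highest value of 1.0004 RPKM and the gene just outside it 0.99965 RPKM. Of the 11155 genes, 9026 reached 1 RPKM in all 4 H&H 35 libraries, 942 in both mesenchyme and neither epithelium library, 471 in both epithelium and neither mesenchyme library, and 197 in none of the 4. A gene that passed through 1 tissue only had to differ between the tissues, so such genes are not evidence of a difference by their presence.

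The other 4 libraries are epithelium and mesenchyme of embryonic day 7 (H&H 31), used here to estimate the spread and for the comparison between stages. The layers of each skin were parted in calcium- and magnesium-free saline, and each library is a whole layer with every cell type it held. In each of the 4 groups the 2 libraries are labelled batch I and batch II and called biological replicates, and values below are given in that order. The study's methods name White Leghorn as the chicken used. No sex, genotype or treatment is given for any group in the sources used here, nor is the number of embryos behind a library. Both tissues of H&H 35 share the stage, the body region and the preparation, and differ in the layer.

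As background, the epithelium of the embryonic skin is a keratin-rich sheet joined by desmosomes and sealed by tight junctions, resting on a basement membrane. The mesenchyme beneath it becomes the dermis, a loose tissue of fibroblasts in a collagen-rich matrix that also carries the vessels, nerves and muscle of the skin. Feathers form by signals that pass between the layers in both directions: WNT, ectodysplasin, fibroblast growth factor (FGF), bone morphogenetic protein (BMP) and Sonic hedgehog signals set up the placode and the dermal condensation and later the growth of the bud. Gene roles named below are textbook roles, most of them worked out in mouse and human.

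Sequencing gave 22050712 to 33620383 alignments a library over the series, and 26888898 to 33620383 in the H&H 35 libraries. The summed RPKM of all genes ranged from 319873.0 to 367121.4, and the 2 libraries of a group correlated at r of 0.9881 to 0.9940 across genes on the log2 scale. Dividing each library by its RPKM sum moved the median difference of all genes by 0.1027 on the log2 scale, with a size that varied from gene to gene. The labels were checked with identity markers. All 14 epithelial markers tested were higher in epithelium, and in the mesenchyme libraries they stood at a median of 1.264% and 1.305% of their mean level in epithelium, with a highest value of 3.706% for TP63. All 13 mesenchymal markers tested were higher in mesenchyme, and in the epithelium libraries they stood at a median of 1.719% and 1.873% of their level in mesenchyme. DCN, the matrix proteoglycan decorin, was the highest of them, at 70.321% and 73.959%, and COL1A2, a chain of collagen I, also stood far above that median, at 369 and 394 RPKM in epithelium and 839 and 794 in mesenchyme.

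Differences are given as log2(RPKM + 1) in mesenchyme minus epithelium, so that positive values are higher in mesenchyme, with the standard error (SE) and an adjusted p from limma. The added 1 understates the difference of genes near or below 1 RPKM. A gene was called when its adjusted p, by Benjamini and Hochberg over all 11155 genes, was below 0.05. Of the 11155 genes, 7387 (66.2%) were called at H&H 35, of which 3243 (29.1%) were higher in mesenchyme and 4144 (37.1%) higher in epithelium. The smallest difference called was 0.1754 in size, and the median over all genes was -0.10. With equal library sums, 3630 genes were called higher in mesenchyme and 3369 higher in epithelium, so which layer held more calls depended on the scaling. Among large differences the order was the opposite: 1706 genes (15.3%) were called with a difference of at least 1 in mesenchyme and 1175 (10.5%) in epithelium, 315 and 184 with at least 3, and 49 and 36 with at least 5. Since each library is a mixture of cells, more cells of a type and more RNA per cell cannot be told apart in any of these values.

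**Figure D1:**
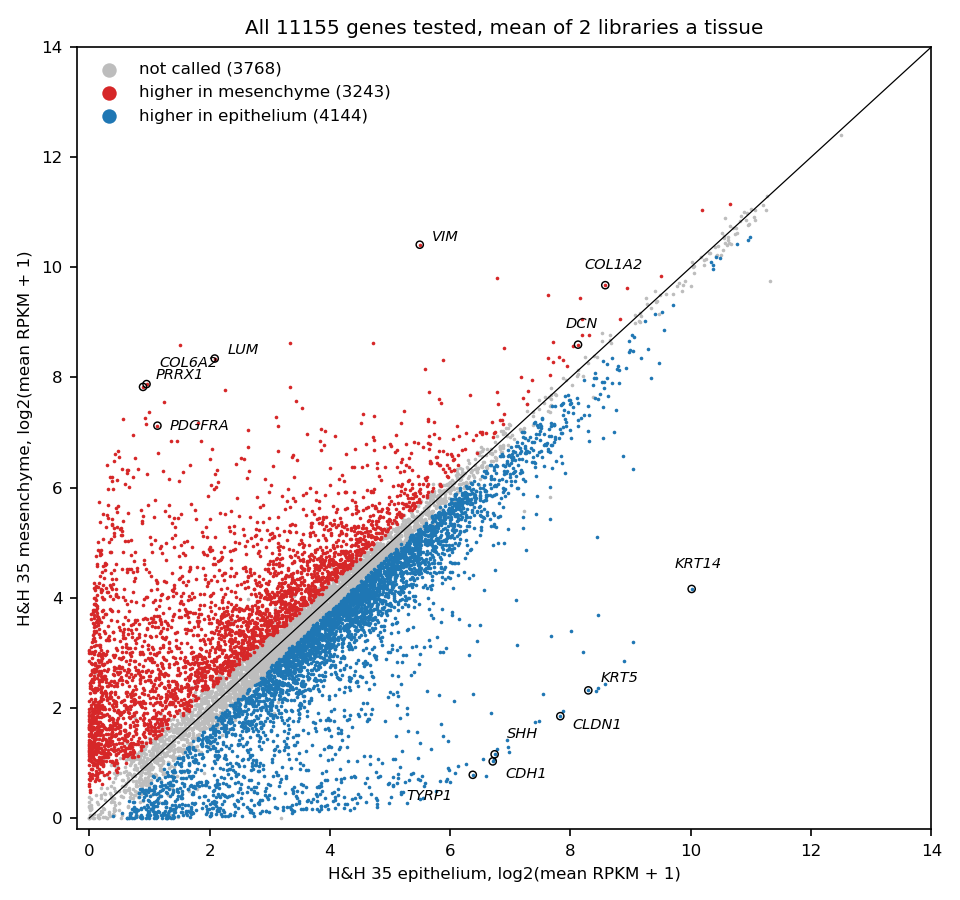
Mean RPKM of every gene tested in H&H 35 epithelium (x axis) and mesenchyme (y axis), both as log2(mean RPKM + 1), with 1 point a gene and the line of equal level. The 3243 genes higher in mesenchyme are red, the 4144 higher in epithelium blue and the 3768 not called gray. The genes with the largest differences lie along both axes, while COL1A2 and DCN lie close to the line among abundant genes.

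At the head of the mesenchymal side stood transcription factors of the early dermis. CDERMO-1, the chick TWIST2 and a marker of the dense dermis, was measured at 392 and 374 RPKM in mesenchyme and 2.14 and 1.53 in epithelium (log2 difference 7.09, SE 0.112, adjusted p = 7.78e-10). PRRX1, a homeobox factor of limb and skin mesenchyme, stood at 218 and 235 RPKM in mesenchyme and 0.922 and 0.792 in epithelium (log2 difference 6.94, SE 0.110, adjusted p = 7.78e-10). OSR1, a zinc finger factor of connective tissue progenitors, stood at 160.4 and 141 RPKM in mesenchyme and 0.536 and 0.4003 in epithelium (log2 difference 6.69, SE 0.116, adjusted p = 1.36e-09). In each of the 3 genes both mesenchyme libraries were far above both epithelium libraries, which held at most 2.14 RPKM. Among the 20 largest differences on this side were also the collagen VI chains COL6A2 (6.92) and COL6A1 (6.32), COL12A1 (6.38), the small proteoglycans LUM (6.26), ASPN (6.12) and OGN (5.79), and the PDGF receptor PDGFRA (5.998). ACTG2, the smooth muscle actin of the gut and vessels, differed by 6.19, and CDH5, the cadherin of endothelial cells, by 5.84. The rest of the 20 were TBX15, TWIST1, P37NB, TNMD, ALDH6, TWIST3, AQP1 and FIBIN, with differences from 5.72 to 6.32.

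The epithelial side was led by adhesion molecules and keratins. TACSTD1, a synonym of EPCAM for an epithelial adhesion molecule, was measured at 385 and 375 RPKM in epithelium and 4.56 and 4.23 in mesenchyme (log2 difference -6.14, SE 0.240, adjusted p = 4.76e-08). CALML3, a calmodulin-like protein of stratified epithelia, stood at 394 and 290.3 RPKM in epithelium and 4.82 and 3.03 in mesenchyme (log2 difference -6.13, SE 0.238, adjusted p = 4.62e-08). CLDN1, the tight junction protein claudin 1 of the skin barrier, stood at 232 and 221 RPKM in epithelium and 2.56 and 2.65 in mesenchyme (log2 difference -5.98, SE 0.0787, adjusted p = 7.05e-10). Both epithelium libraries held at least 221 RPKM of each of these genes and no mesenchyme library more than 4.82. The keratins KRT5, KRT15, KRT14 and KRT8 followed with differences of -5.98, -5.94, -5.86 and -5.84. The 20 also held 3 genes of pigment cells, GPNMB (-5.72), TYRP1 (-5.60) and MLANA (-5.29). They held as well the endothelin receptor EDNRB2 (-5.28), which is also a member of the melanocyte list. SHH was the 1 secreted signal among them (-5.58).

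**Figure D2:**
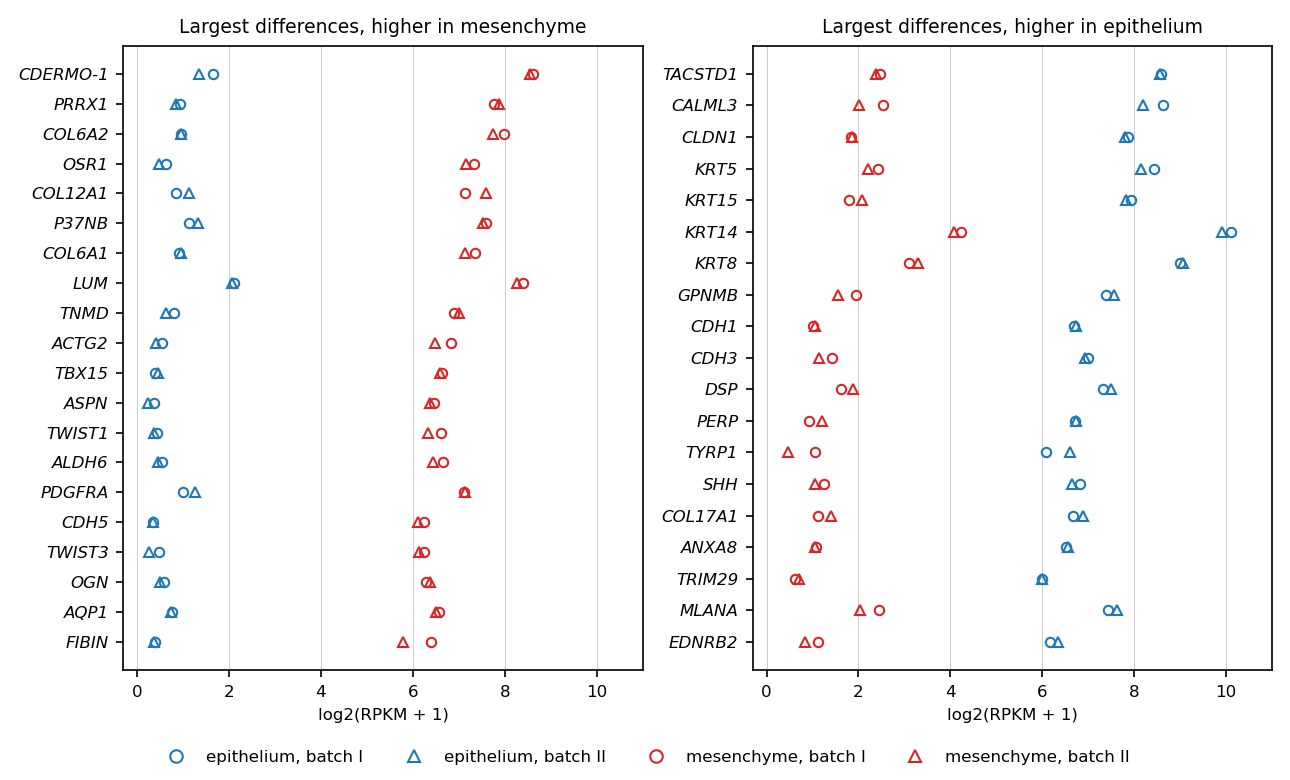
Genes with the 20 largest differences in each direction, less 1 not shown on the epithelial side, among called genes with a symbol and a mean of at least 5 RPKM in the higher tissue, with log2(RPKM + 1) on the x axis and 1 mark for each H&H 35 library (blue epithelium, red mesenchyme, circle batch I, triangle batch II). In all 39 genes the libraries of a tissue lie close together and those of different tissues do not overlap, which the choice of the genes required.

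Desmosomes, the spot junctions that tie keratin filaments of neighboring cells together, were an epithelial feature. All 9 genes tested of the list were higher in epithelium, where 37.1% of all genes were, with a median difference of -4.78 beside -0.10 over all genes. DSP, desmoplakin, which links the junction to keratin, stood at 159.6 and 180.4 RPKM in epithelium and 2.07 and 2.66 in mesenchyme (log2 difference -5.67, SE 0.143, adjusted p = 5.32e-09). JUP, plakoglobin, which is shared with adherens junctions, was measured at 119.7 and 101 RPKM in epithelium and 33.2 and 28.6 in mesenchyme (log2 difference -1.80, SE 0.118, adjusted p = 1.28e-06). Mesenchyme thus held a substantial level of JUP but little DSP, and the groups overlapped in neither. The membrane proteins DSC2 (-5.24) and DSG2 (-4.75), the plakophilins PKP1 (-4.78) and PKP3 (-4.94) and PERP (-5.66) had differences near that of DSP. PKP2, the plakophilin of simple epithelia and heart, was low, at 1.97 and 2.40 RPKM in epithelium and 0.0491 and 0.114 in mesenchyme (-1.55).

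Tight junction genes followed with 11 of 12 higher in epithelium (37.1% of all genes were) and a median of -1.82. The claudins, which form the seal itself, differed most, with CLDN3 at 44.9 and 46.9 RPKM in epithelium and 0.262 and 0.317 in mesenchyme (log2 difference -5.19, SE 0.103, adjusted p = 1.85e-09). CLDN4 differed by -3.99 and CLDN10 by -3.38. The adaptor TJP1 was present in both layers at 28.1 and 31.8 RPKM in epithelium and 22.4 and 24.2 in mesenchyme (log2 difference -0.35, SE 0.0927, adjusted p = 0.00884). The 1 gene of the list higher in mesenchyme was CLDN5, the claudin of endothelial cells, at 19.8 and 15.0 RPKM in mesenchyme and 0.105 and 0.454 in epithelium (log2 difference 3.85, SE 0.173, adjusted p = 1.16e-07). Its epithelium libraries were both near 0. The small differences of TJP1, TJP3 (-0.39) and MARVELD3 (-0.31) were not called without the batch II epithelium library, at -0.26, -0.23 and -0.35, and rested on other single libraries too.

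Cadherins, the adhesion molecules of adherens junctions and their relatives, were called on both sides. Of 21 tested, 12 were higher in mesenchyme (29.1% of all genes were), 7 higher in epithelium (37.1%) and 2 not called, with a median of 0.67. The classical epithelial cadherin CDH1 stood at 102 and 105 RPKM in epithelium and 1.01 and 1.07 in mesenchyme (log2 difference -5.68, SE 0.118, adjusted p = 2.02e-09). CDH3, P-cadherin, was as abundant, at 127 and 120.5 RPKM in epithelium and 1.68 and 1.22 in mesenchyme (log2 difference -5.68, SE 0.162, adjusted p = 9.00e-09). CDH11, the cadherin of mesenchymal cells, showed the reverse, at 214 and 220.2 RPKM in mesenchyme and 3.44 and 4.06 in epithelium (log2 difference 5.52, SE 0.0863, adjusted p = 7.78e-10). These 3 genes did not overlap between the layers, and the lower layer held at most 4.06 RPKM. PCDH18, a protocadherin, differed by 5.36 and the giant cadherin FAT4 by 3.45 toward mesenchyme, and FAT2 by -3.68 toward epithelium. CDH2, N-cadherin, was a mesenchymal gene by a small margin only, at 19.5 and 22.3 RPKM in mesenchyme and 11.2 and 14.5 in epithelium (log2 difference 0.67, SE 0.122, adjusted p = 9.90e-04). PCDH19 (7.35 and 10.3 RPKM in epithelium and 9.32 and 9.94 in mesenchyme) and PCDH8 (0.287 and 0.414 RPKM in epithelium and 0.153 and 0.209 in mesenchyme) were not called.

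Keratins, the intermediate filaments of epithelia, were all higher in epithelium, 10 of 10 tested (37.1% of all genes were), with a median of -4.87. KRT14, the basal keratin, was the most abundant at 1102 and 966 RPKM in epithelium and 17.9 and 15.8 in mesenchyme (log2 difference -5.86, SE 0.267, adjusted p = 1.25e-07). KRT5, its partner, stood at 342 and 284 RPKM in epithelium and 4.36 and 3.62 in mesenchyme (log2 difference -5.98, SE 0.168, adjusted p = 8.25e-09). KRT15 stood at 245 and 224 RPKM in epithelium and 2.46 and 3.23 in mesenchyme and KRT8, a keratin of simple epithelia, at 510.0 and 537 RPKM in epithelium and 7.53 and 8.84 in mesenchyme. Over these 4 keratins the lowest epithelium value was 224 RPKM and the highest mesenchyme value 17.9. KRT75, a keratin of the growing feather, was measured at 47.4 and 33.9 RPKM in epithelium and 0.941 and 0.585 in mesenchyme (log2 difference -4.55, SE 0.226, adjusted p = 2.17e-07). Between H&H 31 and H&H 35 the tissue difference grew in 7 of the 10, where 23% of all genes had a called change of the difference toward epithelium. The change was largest in KRT75, at -3.08 (SE 0.319, adjusted p = 1.19e-04), and KRT5, at -2.63 (SE 0.238, adjusted p = 6.23e-05), while KRT14 (-0.17) and KRT8 (0.25) had no called change.

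Of the epithelial transcription factors, 21 of 26 tested were higher in epithelium, 3 higher in mesenchyme and 2 not called (median -3.91). Over all genes the shares were 37.1% in epithelium and 29.1% in mesenchyme. ESRP2, a splicing factor of epithelial isoforms, stood at 127 and 118 RPKM in epithelium and 1.60 and 1.75 in mesenchyme (log2 difference -5.53, SE 0.114, adjusted p = 2.01e-09). TP63, the master factor of stratified epithelia, was measured at 51.9 and 63.5 RPKM in epithelium and 2.14 and 1.52 in mesenchyme (log2 difference -4.38, SE 0.142, adjusted p = 1.69e-08). Neither overlapped between the tissues. GATA3 differed by -5.06 and ZNF750 by -4.76. Among the genes that went against the name of the list were TRPS1 and KLF4. TRPS1, a GATA-type repressor of hair follicle mesenchyme and cartilage, stood at 22.7 and 29.4 RPKM in mesenchyme and 1.62 and 2.00 in epithelium (log2 difference 3.26, SE 0.145, adjusted p = 1.05e-07). KLF4, a barrier factor that is also expressed in vessels, stood at 61.1 and 43.0 RPKM in mesenchyme and 25.4 and 29 in epithelium (log2 difference 0.89, SE 0.215, adjusted p = 0.00517). Mesenchyme was the higher tissue in both batches of both genes, by a narrow margin for KLF4. BNC1 (5.72 and 5.67 RPKM in epithelium and 3.78 and 6.20 in mesenchyme) overlapped between the tissues and was called only without batch II mesenchyme (-0.48). GATA2 (0.34) was called with the batch as a block within the stage (adjusted p = 0.0435), without batch I epithelium (0.49) and without batch II mesenchyme (0.50).

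Genes of cornification, the hardening of the outer epithelium, were higher in epithelium in 11 of 13 cases and not called in 2 (median -2.65). Of all genes, 37.1% were higher in epithelium. SFN, the 14-3-3 sigma protein of keratinocytes, was measured at 307 and 208 RPKM in epithelium and 10.3 and 8.74 in mesenchyme (log2 difference -4.59, SE 0.177, adjusted p = 4.39e-08). ANXA8, an annexin of stratified epithelium, stood at 91.0 and 93.6 RPKM in epithelium and 1.12 and 1.09 in mesenchyme (log2 difference -5.47, SE 0.0868, adjusted p = 7.78e-10). S100A11, a calcium-binding protein, was high in both layers at 579 and 478 RPKM in epithelium and 95.6 and 63.2 in mesenchyme (log2 difference -2.74, SE 0.171, adjusted p = 9.56e-07). In SFN and S100A11 the epithelium library of batch I was the highest of the 4, and the tissues did not overlap. The members not called were ANXA1 (5.29 and 3.87 RPKM in epithelium and 6.98 and 4.49 in mesenchyme) and CSTA (5.03 and 5.45 RPKM in epithelium and 6.44 and 5.58 in mesenchyme).

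Of the mesenchymal transcription factors, 24 of 29 tested were higher in mesenchyme, 4 higher in epithelium and 1 not called, with a median of 2.36. Over all genes the shares were 29.1% in mesenchyme and 37.1% in epithelium. TWIST1, the relative of CDERMO-1, stood at 97.2 and 79.4 RPKM in mesenchyme and 0.349 and 0.296 in epithelium (log2 difference 6.07, SE 0.116, adjusted p = 1.54e-09). TBX15, a T-box factor of dorsal dermis, stood at 98.2 and 95.2 RPKM in mesenchyme and 0.307 and 0.377 in epithelium (log2 difference 6.19, SE 0.0868, adjusted p = 7.05e-10). FOXD1, a forkhead factor, was measured at 117 and 112 RPKM in mesenchyme and 1.51 and 1.59 in epithelium (log2 difference 5.50, SE 0.143, adjusted p = 6.14e-09). The lowest mesenchyme value over these 3 genes was 79.4 RPKM and the highest epithelium value 1.59. PRRX2 differed by 5.53, SNAI1 by 4.73, ZEB2 by 5.37 and ZEB1 by 3.77. SNAI2, Slug, was also well detected in epithelium, at 227 and 196 RPKM in mesenchyme and 49.9 and 48.4 in epithelium (log2 difference 2.08, SE 0.115, adjusted p = 4.46e-07). The genes higher in epithelium were MSX2, LMX1B, SOX9 and GHOX-7, the last a chick name of MSX1, all of them also known from epithelial appendages. MSX2, a homeobox target of BMP signals, stood at 44.7 and 41.4 RPKM in epithelium and 1.28 and 0.985 in mesenchyme (log2 difference -4.37, SE 0.173, adjusted p = 5.17e-08). SOX9, a factor of appendage stem cells as well as cartilage, stood at 11.5 and 14.6 RPKM in epithelium and 0.410 and 0.537 in mesenchyme (log2 difference -3.24, SE 0.140, adjusted p = 8.64e-08). LMX1B differed by -4.15 and GHOX-7 by -2.89, and in none of the 4 did the tissues overlap. RUNX1 (1.18 and 1.47 RPKM in epithelium and 0.826 and 1.29 in mesenchyme) was not called except with quantile normalization (-0.52).

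Interstitial collagens, the fibers of the dermis and their associates, were higher in mesenchyme in 13 of 18 cases and in epithelium in 5 (median 2.44). Over all genes the shares were 29.1% and 37.1%. COL6A2, a chain of the beaded filaments around cells, stood at 254 and 215 RPKM in mesenchyme and 0.943 and 0.924 in epithelium (log2 difference 6.92, SE 0.290, adjusted p = 7.32e-08). COL12A1, which coats collagen fibrils, stood at 139 and 191 RPKM in mesenchyme and 0.797 and 1.17 in epithelium (log2 difference 6.38, SE 0.150, adjusted p = 3.95e-09). COL3A1, a fibril-forming chain of soft tissue, stood at 439.9 and 350.2 RPKM in mesenchyme and 24.3 and 26.1 in epithelium (log2 difference 3.91, SE 0.127, adjusted p = 1.68e-08). COL1A2, a chain of the most common fibril, was higher than any of these but differed less, at 839 and 794 RPKM in mesenchyme and 369 and 394 in epithelium (log2 difference 1.10, SE 0.117, adjusted p = 3.46e-05). Epithelium thus held little COL6A2 and COL12A1, a moderate level of COL3A1 and a high level of COL1A2. The collagen V chains COL5A2 (4.49) and COL5A1 (3.04) lay between. On the epithelial side, COL9A3 of cartilage-type collagen IX stood at 14.8 and 16.8 RPKM in epithelium and 2.30 and 2.51 in mesenchyme (log2 difference -2.30, SE 0.152, adjusted p = 1.38e-06). The chains of collagen IX were divided, with another of them called higher in mesenchyme. COL14A1, another fibril coat, stood at 124 and 149.9 RPKM in epithelium and 98.4 and 92.8 in mesenchyme (log2 difference -0.51, SE 0.113, adjusted p = 0.00328). COL11A1, COL24A1 and COL9A2 differed by -0.40, -0.51 and -0.60. Without the batch II epithelium library they differed by -0.30, -0.38 and -0.61 and without the batch I mesenchyme library by -0.28, -0.42 and -0.63, and none was called in either case, leaving 2 collagens on the epithelial side. The call of COL9A2 was also lost without either other H&H 35 library (-0.56 and -0.58).

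All 33 matrix glycoproteins and proteoglycans tested were higher in mesenchyme (29.1% of all genes were), with a median of 2.92. LUM, the fibril-spacing proteoglycan lumican, stood at 338 and 309 RPKM in mesenchyme and 3.31 and 3.18 in epithelium (log2 difference 6.26, SE 0.208, adjusted p = 1.86e-08). ELN, elastin of elastic fibers, stood at 53.3 and 36.6 RPKM in mesenchyme and 0.161 and 0.183 in epithelium (log2 difference 5.27, SE 0.164, adjusted p = 1.37e-08). FN1, fibronectin, which cells migrate on, stood at 276 and 292 RPKM in mesenchyme and 41.0 and 53.0 in epithelium (log2 difference 2.58, SE 0.113, adjusted p = 9.25e-08). FN1 was thus abundant in both layers whereas ELN was near 0 in epithelium. POSTN, periostin, stood at 372 and 266 RPKM in mesenchyme and 49.5 and 66.0 in epithelium (log2 difference 2.44, SE 0.177, adjusted p = 2.63e-06). SPARC, a collagen-binding protein, stood at 784 and 610.4 RPKM in mesenchyme and 277 and 294 in epithelium (log2 difference 1.28, SE 0.116, adjusted p = 1.20e-05). The smallest difference was that of DCN, at 398 and 374 RPKM in mesenchyme and 271 and 285 in epithelium (log2 difference 0.47, SE 0.0889, adjusted p = 0.00131). Its tissues did not overlap although all 4 libraries lay between 271 and 398 RPKM. Among the rest, FBN1 of the microfibrils differed by 4.71, the spondin SPON1 by 5.13, PRELP by 5.28 and tenascin TNC by 1.91. From H&H 31 to H&H 35 the difference moved toward mesenchyme in 20 of the 33 and toward epithelium in 5, where 19.4% and 23% of all genes did.

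Of the matrix proteases and their inhibitors, 18 of 24 were higher in mesenchyme, 3 higher in epithelium and 3 not called (median 1.67). Over all genes 29.1% were higher in mesenchyme and 37.1% in epithelium. MMP2, gelatinase A, stood at 70.9 and 73.7 RPKM in mesenchyme and 0.606 and 0.687 in epithelium (log2 difference 5.48, SE 0.0983, adjusted p = 1.41e-09). TIMP3, a matrix-bound inhibitor, stood at 54.9 and 58.0 RPKM in mesenchyme and 3.27 and 2.61 in epithelium (log2 difference 3.87, SE 0.108, adjusted p = 8.12e-09). MMP11, stromelysin 3, was the protease most on the epithelial side, at 30.2 and 36.3 RPKM in epithelium and 10.5 and 10.9 in mesenchyme (log2 difference -1.54, SE 0.131, adjusted p = 7.56e-06). The tissues overlapped in none of the 3. MMP27 and ADAMTS15 differed by 4.09 and 3.89 toward mesenchyme. ADAMTS17 was about equal in both layers (27.1 and 37.5 RPKM in epithelium and 25.8 and 34.7 in mesenchyme) and not called. At H&H 31 it had stood at 73.1 and 67.0 RPKM in epithelium and 0.944 and 1.22 in mesenchyme, a change of 5.004 (SE 0.245, adjusted p = 5.72e-06).

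The basement membrane is made by cells on both sides of it, and its genes were called on both sides, as all genes were. Of 32 tested, 16 were higher in epithelium, 11 higher in mesenchyme and 5 not called, with a median of -0.25, beside 37.1% and 29.1% of all genes. COL17A1 of the hemidesmosome, the junction that holds the basal cell to the membrane, stood at 101 and 117 RPKM in epithelium and 1.17 and 1.62 in mesenchyme (log2 difference -5.53, SE 0.137, adjusted p = 5.11e-09). The integrin chains of the same junction, ITGB4 and ITGA6, differed by -2.86 and -2.29, while its plakin DST overlapped between the layers and was not called (5.33 and 8.06 RPKM in epithelium and 6.69 and 9.48 in mesenchyme). Of the chains of its laminin ligand, LAMA3 differed by -2.66 and LAMB3 by -3.01. LAMA5, the long laminin chain of epithelia, was measured at 32.8 and 38.7 RPKM in epithelium and 1.43 and 1.21 in mesenchyme (log2 difference -3.98, SE 0.123, adjusted p = 1.34e-08). LAMA2, the laminin chain of muscle and mesenchyme, was the mirror image at 23.0 and 18.7 RPKM in mesenchyme and 0.261 and 0.312 in epithelium (log2 difference 4.08, SE 0.133, adjusted p = 1.68e-08). Collagen IV, the network of the membrane, was divided by chain. COL4A1 stood at 51.8 and 50.5 RPKM in mesenchyme and 2.27 and 2.19 in epithelium (log2 difference 4.01, SE 0.125, adjusted p = 1.37e-08). COL4A2, encoded beside it, stood at 30.9 and 28.8 RPKM in mesenchyme and 1.31 and 1.27 in epithelium (log2 difference 3.75, SE 0.149, adjusted p = 5.32e-08). COL4A5 stood at 47.4 and 54.1 RPKM in epithelium and 20.01 and 15.7 in mesenchyme (log2 difference -1.46, SE 0.124, adjusted p = 7.34e-06). COL4A6 stood at 31.9 and 36.5 RPKM in epithelium and 10.1 and 8.69 in mesenchyme (log2 difference -1.76, SE 0.104, adjusted p = 6.90e-07). COL4A1 and COL4A2 were thus mesenchymal and COL4A5 and COL4A6 epithelial, with no overlap in any of the 4. The linkers NID1 (1.63) and NID2 (3.72) were higher in mesenchyme. LAMC1, the chain shared by most laminins, was not called (92.1 and 109.8 RPKM in epithelium and 103 and 103 in mesenchyme).

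Among the integrins, the receptors for matrix, 7 of 13 were higher in mesenchyme, 5 higher in epithelium and 1 not called (median 0.51), beside 29.1% and 37.1% of all genes. ITGA8, the receptor chain for nephronectin, stood at 36.8 and 39.1 RPKM in mesenchyme and 0.393 and 0.358 in epithelium (log2 difference 4.82, SE 0.110, adjusted p = 3.32e-09). ITGB1, the beta chain shared by most integrins, stood at 202 and 205 RPKM in mesenchyme and 75.1 and 83.5 in epithelium (log2 difference 1.35, SE 0.0791, adjusted p = 6.33e-07). ITGB1 was well expressed in both layers and ITGA8 was near 0 in epithelium. NPNT, nephronectin itself, was slightly higher in epithelium, at 47.1 and 50.4 RPKM in epithelium and 32.6 and 34.7 in mesenchyme (log2 difference -0.52, SE 0.0764, adjusted p = 2.61e-04). ITGA2, a collagen receptor chain, differed by -2.59, and ITGAV (0.15) was not called.

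**Figure D3:**
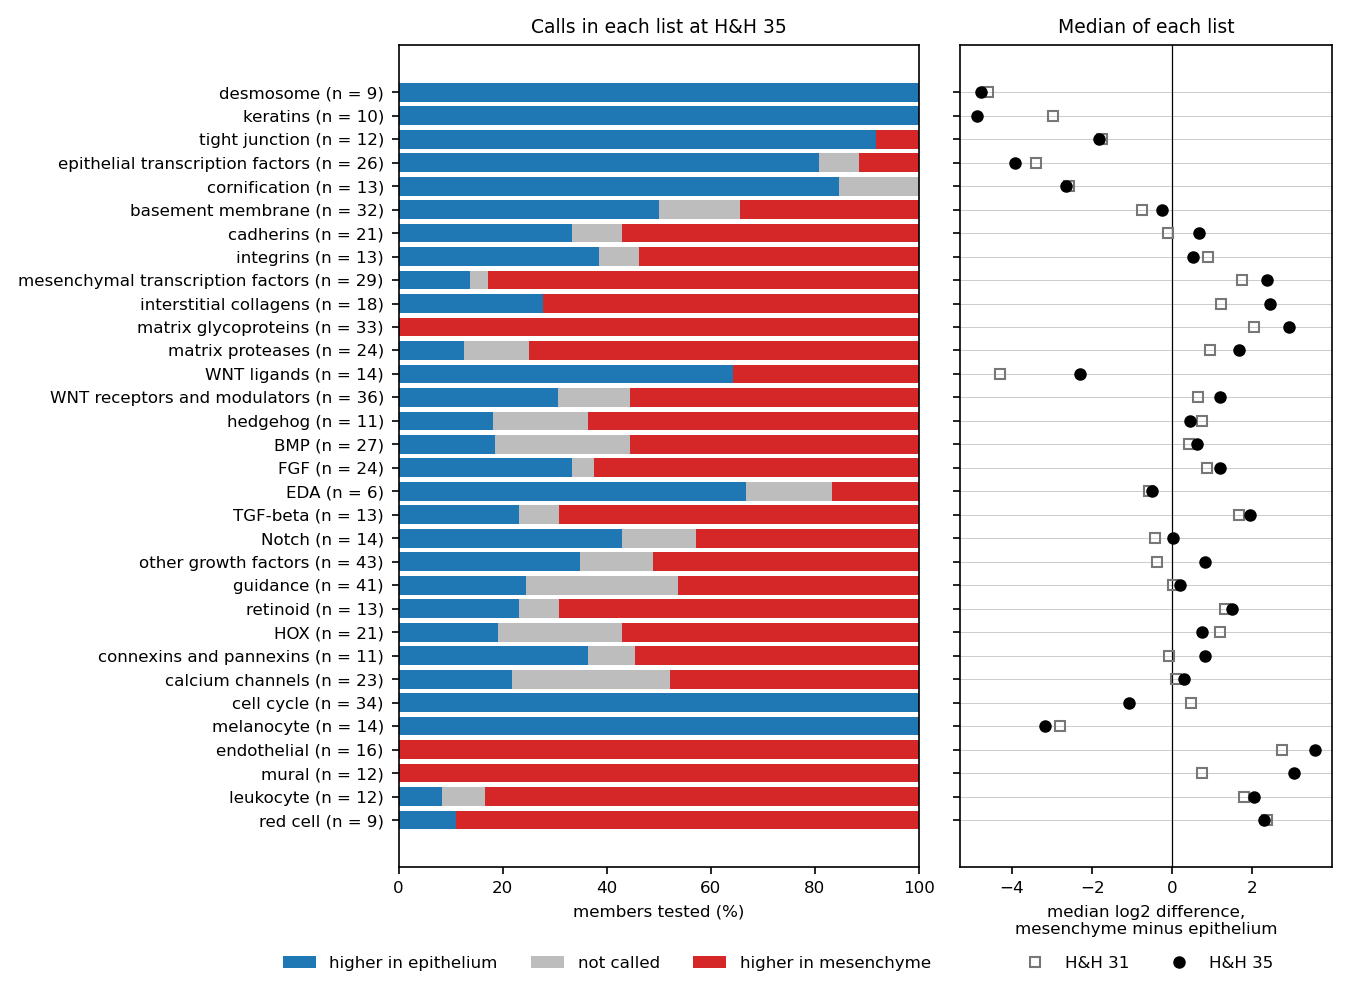
Left, the share of tested members of each gene list (percent, x axis) that were higher in H&H 35 epithelium (blue), higher in mesenchyme (red) or not called (gray). Right, the median log2 difference of each list at H&H 35 (filled circles) and H&H 31 (open squares). Desmosome, keratin, melanocyte and cell cycle lists are wholly blue and matrix glycoprotein, endothelial and mural lists wholly red, while signaling lists hold both colors.

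Hedgehog signaling was divided, with the ligand in epithelium and most of the other genes in mesenchyme. SHH, the ligand, was measured at 113 and 99.0 RPKM in epithelium and 1.37 and 1.09 in mesenchyme (log2 difference -5.58, SE 0.131, adjusted p = 3.93e-09). PTCH1, the receptor and a transcriptional target of the pathway, stood at 24.9 and 28.9 RPKM in mesenchyme and 13.1 and 14.5 in epithelium (log2 difference 0.92, SE 0.130, adjusted p = 2.15e-04). The ligand was 86.0-fold higher in epithelium by the mean RPKM, while PTCH1 was mesenchymal. HHIP, an inhibitor that binds the ligand and is induced by it, stood at 26.4 and 32.4 RPKM in mesenchyme and 3.07 and 2.93 in epithelium (log2 difference 2.92, SE 0.122, adjusted p = 7.24e-08). BOC, a coreceptor, stood at 62.1 and 67.6 RPKM in mesenchyme and 6.86 and 7.33 in epithelium (log2 difference 3.02, SE 0.0888, adjusted p = 1.04e-08). SMO, the signal transducer, differed little, at 42.5 and 41.8 RPKM in mesenchyme and 31.1 and 30.1 in epithelium (log2 difference 0.45, SE 0.0872, adjusted p = 0.00152). The transcription factor GLI2 was equal in both layers (56.9 and 61.4 RPKM in epithelium and 56.1 and 60.6 in mesenchyme) and not called, as was the coreceptor CDON (0.07). In all, 7 of 11 genes were higher in mesenchyme and 2 in epithelium (median 0.45), beside 29.1% and 37.1% of all genes. At H&H 31 SHH stood at 5.89 and 7.05 RPKM in epithelium and 0 and 0.101 in mesenchyme, and its difference grew by H&H 35, with a change of -2.75 (SE 0.185, adjusted p = 1.64e-05).

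WNT ligands were mostly epithelial: 9 of 14 were higher in epithelium and 5 in mesenchyme, with a median of -2.30. Over all genes the shares were 37.1% and 29.1%. WNT6, an early ligand of the ectoderm, stood at 66.9 and 66.6 RPKM in epithelium and 0.693 and 0.842 in mesenchyme (log2 difference -5.26, SE 0.173, adjusted p = 1.77e-08). WNT10A, a ligand of skin appendages, stood at 28.1 and 24.8 RPKM in epithelium and 0.193 and 0.192 in mesenchyme (log2 difference -4.52, SE 0.108, adjusted p = 4.47e-09). WNT7A and WNT7B differed by -3.87 and -3.31. Mesenchyme held at most 0.842 RPKM of WNT6 and WNT10A. WNT11, a ligand of the noncanonical branch, was instead mesenchymal, at 116 and 109 RPKM in mesenchyme and 40.4 and 42.1 in epithelium (log2 difference 1.42, SE 0.0790, adjusted p = 4.47e-07). WNT5A, of the same branch, stood at 107 and 80.0 RPKM in mesenchyme and 55.9 and 51.4 in epithelium (log2 difference 0.77, SE 0.129, adjusted p = 6.11e-04). WNT2B stood at 18.9 and 21.2 RPKM in mesenchyme and 3.10 and 3.32 in epithelium (log2 difference 2.32, SE 0.0905, adjusted p = 4.67e-08). These 3 were also expressed in epithelium, and the tissues did not overlap. At H&H 31 the median of the list was -4.30. The difference moved toward mesenchyme in 9 of 14 genes and toward epithelium in 4, where 19.4% and 23% of all genes did. WNT9B moved most toward mesenchyme (2.81 (SE 0.203, adjusted p = 2.12e-05)), with 35.7 and 37.3 RPKM in epithelium and 0.0411 and 0.197 in mesenchyme at H&H 31 and 3.38 and 4.55 RPKM in epithelium and 0 and 0.0558 in mesenchyme at H&H 35. WNT11 moved most the other way (-3.60 (SE 0.112, adjusted p = 2.20e-06)), from 2.99 and 2.64 RPKM in epithelium and 121 and 125 in mesenchyme at H&H 31.

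WNT receptors, modulators and targets leaned to mesenchyme, 20 of 36 against 11 in epithelium and 5 not called (median 1.20). Of all genes, 29.1% and 37.1% were called on these sides. Secreted inhibitors led this side, though not every secreted inhibitor of the list was higher in mesenchyme. DKK2, which blocks the LRP coreceptors, stood at 43.4 and 53.1 RPKM in mesenchyme and 0.265 and 0.467 in epithelium (log2 difference 5.17, SE 0.129, adjusted p = 5.32e-09). SFRP1, a decoy with a frizzled domain, stood at 127 and 136 RPKM in mesenchyme and 4.87 and 5.63 in epithelium (log2 difference 4.41, SE 0.112, adjusted p = 5.32e-09). WIF1, a WNT-binding protein, stood at 39.0 and 47.7 RPKM in mesenchyme and 1.04 and 1.17 in epithelium (log2 difference 4.39, SE 0.114, adjusted p = 6.09e-09). Each of the 3 inhibitors stood at 5.63 RPKM or less in epithelium and 39.0 or more in mesenchyme. KREMEN1, the receptor of the Dickkopf proteins, was epithelial, at 79.0 and 93.4 RPKM in epithelium and 7.22 and 9.33 in mesenchyme (log2 difference -3.24, SE 0.134, adjusted p = 6.63e-08). Frizzled receptors were split, with FZD10 (-3.39), FZD6 (-2.80) and FZD3 (-1.90) on the epithelial and FZD2 (1.67) and FZD1 (1.23) on the mesenchymal side. The R-spondin ligand RSPO1 was mesenchymal (4.09), and of its receptors LGR5 stood at 59.4 and 47.9 RPKM in mesenchyme and 14.8 and 10.6 in epithelium (log2 difference 2.00, SE 0.228, adjusted p = 5.14e-05) and LGR4 at 63.5 and 66.3 RPKM in epithelium and 16.4 and 17.7 in mesenchyme (log2 difference -1.87, SE 0.0782, adjusted p = 7.30e-08). The receptors of the pathway were thus present in both layers, with different members in each. The nuclear factor LEF-1 was high in both layers and highest in epithelium, at 161 and 178 RPKM in epithelium and 77.4 and 86.1 in mesenchyme (log2 difference -1.05, SE 0.137, adjusted p = 1.30e-04). AXIN2, the common target of the canonical pathway, stood at 39.9 and 37.6 RPKM in mesenchyme and 16.0 and 17.2 in epithelium (log2 difference 1.18, SE 0.147, adjusted p = 9.36e-05). SOSTDC1 (113 and 141 RPKM in epithelium and 162 and 117 in mesenchyme) overlapped between the tissues and was not called.

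BMP genes were higher in mesenchyme in 15 of 27 cases, in epithelium in 5 and not called in 7 (median 0.62), beside 29.1% and 37.1% of all genes. Among ligands, BMP7 stood at 50.4 and 48.4 RPKM in epithelium and 6.91 and 9.83 in mesenchyme (log2 difference -2.45, SE 0.220, adjusted p = 1.11e-05). BMP2, a lateral inhibitor of feather buds in chick, stood at 15.2 and 20.2 RPKM in epithelium and 6.95 and 9.21 in mesenchyme (log2 difference -1.04, SE 0.255, adjusted p = 0.00560). BMP4 stood at 33.98 and 24.9 RPKM in mesenchyme and 3.81 and 3.65 in epithelium (log2 difference 2.67, SE 0.264, adjusted p = 2.06e-05). BMP7 and BMP2 were thus epithelial and BMP4 mesenchymal, without overlap. Of the secreted antagonists and modulators, those described next were mesenchymal, while SOSTDC1, given above, and CHRDL1 (1.95 and 2.59 RPKM in epithelium and 5.76 and 2.60 in mesenchyme) were not called, except CHRDL1 without batch II mesenchyme (1.05) or with equal library sums (0.68). BMPER, which binds BMPs outside the cell, had the largest difference of the list, at 65.5 and 57.6 RPKM in mesenchyme and 0.215 and 0.264 in epithelium (log2 difference 5.66, SE 0.116, adjusted p = 1.99e-09). GREM1, gremlin, stood at 25.1 and 28.7 RPKM in mesenchyme and 0.154 and 0.141 in epithelium (log2 difference 4.60, SE 0.160, adjusted p = 2.43e-08). FSTL1, a follistatin-like glycoprotein, stood at 828 and 968 RPKM in mesenchyme and 98.9 and 119.6 in epithelium (log2 difference 3.03, SE 0.109, adjusted p = 2.99e-08). NOG, noggin, was low but followed the same side, at 3.39 and 2.54 RPKM in mesenchyme and 0.437 and 0.0596 in epithelium (log2 difference 1.68, SE 0.213, adjusted p = 1.05e-04). The receptor BMPR1A overlapped (13.1 and 16.7 RPKM in epithelium and 11.1 and 17.1 in mesenchyme) and was not called. Of the immediate targets, ID3 stood at 109.6 and 124 RPKM in epithelium and 92.3 and 75.1 in mesenchyme (log2 difference -0.48, SE 0.125, adjusted p = 0.00786), and was not called without batch II of either tissue (-0.39 and -0.33). ID1 went the other way, at 70.4 and 43.9 RPKM in mesenchyme and 35.3 and 34.8 in epithelium (log2 difference 0.65, SE 0.238, adjusted p = 0.0371), but was not called without batch I mesenchyme (0.32) or without either epithelium library (0.66 and 0.64). ID2 was not called (118 and 132 RPKM in epithelium and 143 and 142 in mesenchyme) except under another scaling (0.30 with equal library sums) or with the batch as a block within the stage (adjusted p = 0.0339).

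FGF genes were higher in mesenchyme in 15 of 24 cases and in epithelium in 8 (median 1.19), beside 29.1% and 37.1% of all genes. The ligands FGF7 and FGF10, which signal from mesenchyme to the FGFR2 of epithelia, were found on the mesenchymal side. FGF7 stood at 18.1 and 16.0 RPKM in mesenchyme and 0.111 and 0.0113 in epithelium (log2 difference 4.09, SE 0.132, adjusted p = 1.62e-08). FGF10 stood at 7.24 and 11.4 RPKM in mesenchyme and 0.103 and 0 in epithelium (log2 difference 3.27, SE 0.185, adjusted p = 5.17e-07). FGFR2 stood at 94.3 and 108 RPKM in epithelium and 36.9 and 39.8 in mesenchyme (log2 difference -1.38, SE 0.101, adjusted p = 2.77e-06). The ligands were at or near 0 in epithelium, and the receptor was the higher there, although mesenchyme held it too. FGF20, a ligand of the placode, was low in epithelium, at 3.31 and 5.70 RPKM in epithelium and 0.355 and 0.154 in mesenchyme (log2 difference -2.10, SE 0.226, adjusted p = 3.53e-05). It had stood at 44.7 and 52.4 RPKM in epithelium and 0.0325 and 0.408 in mesenchyme at H&H 31. FGFR1, the receptor of the dermal condensation, stood at 100.2 and 100.5 RPKM in mesenchyme and 6.69 and 8.86 in epithelium (log2 difference 3.54, SE 0.124, adjusted p = 2.52e-08). SPRY2, a feedback inhibitor induced by FGF signals, was on the same side, at 46.3 and 44.4 RPKM in mesenchyme and 3.12 and 3.94 in epithelium (log2 difference 3.36, SE 0.224, adjusted p = 1.48e-06). Other members of the list that FGF signals are known to induce were called on both sides. FGFBP1, a carrier that frees FGFs from the matrix, had the largest epithelial difference of the list, at 22.4 and 19.9 RPKM in epithelium and 0.196 and 0.528 in mesenchyme (log2 difference -4.03, SE 0.153, adjusted p = 3.91e-08).

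In the ectodysplasin pathway the ligand and its receptor lay on opposite sides. EDA, the ligand, stood at 35.4 and 26.9 RPKM in mesenchyme and 3.96 and 4.73 in epithelium (log2 difference 2.58, SE 0.181, adjusted p = 2.10e-06). EDAR, the receptor that marks feather placodes, stood at 22.6 and 27.4 RPKM in epithelium and 10.5 and 11.9 in mesenchyme (log2 difference -1.09, SE 0.121, adjusted p = 4.38e-05). EDARADD, its adaptor, stood at 17.2 and 20.4 RPKM in epithelium and 0.982 and 1.14 in mesenchyme (log2 difference -3.26, SE 0.130, adjusted p = 5.37e-08). None overlapped between the layers. The EDAR difference had been larger at H&H 31, when mesenchyme held less (40.3 and 44.5 RPKM in epithelium and 0.836 and 1.04 in mesenchyme), with a change of 3.39 (SE 0.172, adjusted p = 6.41e-06). Of the 6 genes tested, 4 were higher in epithelium, 1 in mesenchyme and TNFRSF19 was not called (median -0.51). Over all genes the shares were 37.1% in epithelium and 29.1% in mesenchyme. TNFRSF19, a related receptor, stood at 17.3 and 29.4 RPKM in epithelium and 27.8 and 34.8 in mesenchyme (log2 difference 0.45, SE 0.210, adjusted p = 0.0903), and was called with the batch as a block within the stage (adjusted p = 0.00685) or without the batch II epithelium library (0.81). EDA2R (-0.71) and TRAF6 (-0.31), low in both layers, were not called without the batch II mesenchyme library (-0.43 and -0.36), which left 2 genes on the epithelial side, nor EDA2R without batch I epithelium (-0.62), nor TRAF6 without any 1 of 6 other libraries (-0.21 to -0.31).

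The transforming growth factor beta list leaned to mesenchyme, 9 of 13 against 3 (median 1.95), beside 29.1% and 37.1% of all genes. TGFB3, a ligand, stood at 140.2 and 101 RPKM in epithelium and 81.9 and 54.3 in mesenchyme (log2 difference -0.82, SE 0.201, adjusted p = 0.00561). TGFBR2, the receptor that binds it, stood at 14.8 and 13.9 RPKM in mesenchyme and 0.582 and 0.633 in epithelium (log2 difference 3.26, SE 0.129, adjusted p = 5.20e-08). ACVR2A, an activin receptor, was epithelial, at 52.9 and 65.6 RPKM in epithelium and 17.4 and 21.2 in mesenchyme (log2 difference -1.57, SE 0.128, adjusted p = 5.82e-06), while INHBA, which encodes the activin A subunit, was mesenchymal (2.71). The ligand TGFB3 was high in both layers and its receptor was low in epithelium. The latent-form binding protein LTBP1 differed by 2.37 and endoglin, ENG, a coreceptor of endothelial cells, by 4.48.

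Of 14 Notch genes, 6 were higher in mesenchyme, 6 in epithelium and 2 not called (median 0.03), beside 29.1% and 37.1% of all genes. JAG2, a ligand of epithelia, stood at 50.3 and 60.3 RPKM in epithelium and 4.27 and 3.17 in mesenchyme (log2 difference -3.58, SE 0.133, adjusted p = 3.46e-08). DLL1, a ligand known from the feather dermis of chick, stood at 14.3 and 19.0 RPKM in mesenchyme and 0.0905 and 0.0555 in epithelium (log2 difference 4.03, SE 0.183, adjusted p = 1.24e-07). JAG1 stood at 36.2 and 41.3 RPKM in mesenchyme and 17.1 and 19.3 in epithelium (log2 difference 1.05, SE 0.141, adjusted p = 1.47e-04). The ligands were thus split between the layers without overlap. Both receptors were expressed throughout: NOTCH1 stood at 21.4 and 28.8 RPKM in epithelium and 15.2 and 19.8 in mesenchyme (log2 difference -0.49, SE 0.164, adjusted p = 0.0246) and NOTCH2 at 48.4 and 52.3 RPKM in mesenchyme and 22.9 and 27.0 in epithelium (log2 difference 0.99, SE 0.0924, adjusted p = 1.40e-05). Of the targets, NRARP stood at 22.1 and 24.2 RPKM in epithelium and 6.51 and 5.33 in mesenchyme (log2 difference -1.81, SE 0.134, adjusted p = 2.95e-06), HEY1 at 29.8 and 32.7 RPKM in epithelium and 23.6 and 20.4 in mesenchyme (log2 difference -0.49, SE 0.154, adjusted p = 0.0193) and HES5 at 9.33 and 4.72 RPKM in mesenchyme, with epithelium at or near 0. HEY1 was not called without batch II of epithelium (-0.43) or of mesenchyme (-0.39). HES4 (64.2 and 60.4 RPKM in epithelium and 62.0 and 62.7 in mesenchyme) and HEYL (14.7 and 14.3 RPKM in epithelium and 15.4 and 14.8 in mesenchyme) were not called. Without the batch II epithelium library the median was -0.0021 and 3 genes were higher in epithelium, and with equal library sums the median was 0.14 and 4 genes were. NOTCH1 was then not called (-0.29), nor was it without batch I mesenchyme (-0.32).

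Other growth factors and receptors were higher in mesenchyme in 22 of 43 cases, in epithelium in 15 and not called in 6 (median 0.81), beside 29.1% and 37.1% of all genes. PDGF-A, the platelet-derived ligand A, stood at 47.8 and 64.2 RPKM in epithelium and 7.53 and 6.72 in mesenchyme (log2 difference -2.80, SE 0.151, adjusted p = 3.74e-07). PDGFRA, its receptor, stood at 137 and 140.4 RPKM in mesenchyme and 0.992 and 1.39 in epithelium (log2 difference 5.998, SE 0.113, adjusted p = 1.54e-09). PDGFD, another ligand of the family, was mesenchymal and abundant, at 122 and 124 RPKM in mesenchyme and 33.9 and 32.7 in epithelium (log2 difference 1.85, SE 0.0721, adjusted p = 4.64e-08). By mean RPKM the receptor was 116-fold higher in mesenchyme and the ligand A 7.86-fold higher in epithelium. KITLG, the ligand that pigment cells follow, stood at 33.5 and 36.1 RPKM in epithelium and 2.57 and 2.48 in mesenchyme (log2 difference -3.34, SE 0.103, adjusted p = 1.34e-08). EGFR, the receptor of epidermal growth factors, stood at 40.8 and 50.0 RPKM in epithelium and 17.8 and 21.7 in mesenchyme (log2 difference -1.16, SE 0.130, adjusted p = 4.59e-05). IGF2, an insulin-like growth factor, stood at 22.3 and 22.3 RPKM in mesenchyme and 4.55 and 5.15 in epithelium (log2 difference 2.00, SE 0.105, adjusted p = 3.26e-07). The endothelin ligand EDN3 was epithelial (-2.99). So was EDNRB2, the receptor listed as its pair, at 71.3 and 79.6 RPKM in epithelium and 1.17 and 0.777 in mesenchyme. Another endothelin receptor, EDNRA, was mesenchymal (3.98).

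Of the axon and vessel guidance genes, 19 of 41 were higher in mesenchyme, 10 in epithelium and 12 not called, with a median of 0.20, beside 29.1% and 37.1% of all genes. NRP2, a neuropilin receptor of semaphorins, stood at 76.3 and 77.9 RPKM in mesenchyme and 1.64 and 2.25 in epithelium (log2 difference 4.74, SE 0.120, adjusted p = 5.32e-09). NTN1, the guidance cue netrin 1, stood at 14.9 and 14.8 RPKM in mesenchyme and 0.0453 and 0.0941 in epithelium (log2 difference 3.89, SE 0.107, adjusted p = 7.73e-09). SEMA3E, a repellent of vessels, was epithelial, at 16.6 and 19.1 RPKM in epithelium and 0.586 and 0.734 in mesenchyme (log2 difference -3.50, SE 0.135, adjusted p = 4.31e-08). Each of the 3 was low in the other layer, with at most 2.25 RPKM. EPHA1 (-3.66), EFNB2 (-2.26) and PLXNB1 (-2.50) were also on the epithelial side and EPHA5 (2.95) and SEMA3F (2.36) on the mesenchymal side. EPHB3 (31.4 and 36.3 RPKM in epithelium and 31.4 and 29.7 in mesenchyme) and PLXNA1 (23.9 and 30.7 RPKM in epithelium and 25.7 and 31.9 in mesenchyme) were not called.

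Setting ligands beside their receptors, 46 of 55 listed pairs had both genes tested. In 12 pairs the ligand was higher in epithelium and the receptor in mesenchyme, and in 9 pairs the ligand was higher in mesenchyme and the receptor in epithelium. Both genes were higher in mesenchyme in 9 pairs and in epithelium in 3, and in 13 pairs at least 1 gene was not called. Of all genes, 29.1% were higher in mesenchyme and 37.1% in epithelium. The pairs share members, since SHH stands in 6 listed pairs, so they are not independent. The first kind held SHH with BOC, GAS1, PTCH1 and SMO, PDGF-A and PDGFC with PDGFRA, TGFB3 with TGFBR2, FGF20 with FGFR1, JAG2 with NOTCH2, BMP7 with ACVR1, NPNT with ITGA8 and JSC with CXCR4. SMO is counted here as a receptor, but it is the signal transducer of the pathway and does not bind SHH. It differed little, at 42.5 and 41.8 RPKM in mesenchyme and 31.1 and 30.1 in epithelium. JSC is a synonym of CXCL14, a chemokine, and stood at 134 and 172 RPKM in epithelium and 39.2 and 16.8 in mesenchyme (log2 difference -2.51, SE 0.301, adjusted p = 7.14e-05). The second kind held EDA with EDAR, FGF7 and FGF10 with FGFR2, FGF18 with FGFR3, RSPO3 with LGR4, DLL1 and JAG1 with NOTCH1, INHBA with ACVR2A and NTN1 with UNC5B. The pairs of DLL1 and JAG1 with NOTCH1 rest on the call of NOTCH1, which was lost with equal library sums (-0.38) and with quantile normalization (-0.41). The same call was lost without batch II epithelium (-0.29) or batch I mesenchyme (-0.32). These are levels of RNA, and no binding was measured.

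**Figure D4:**
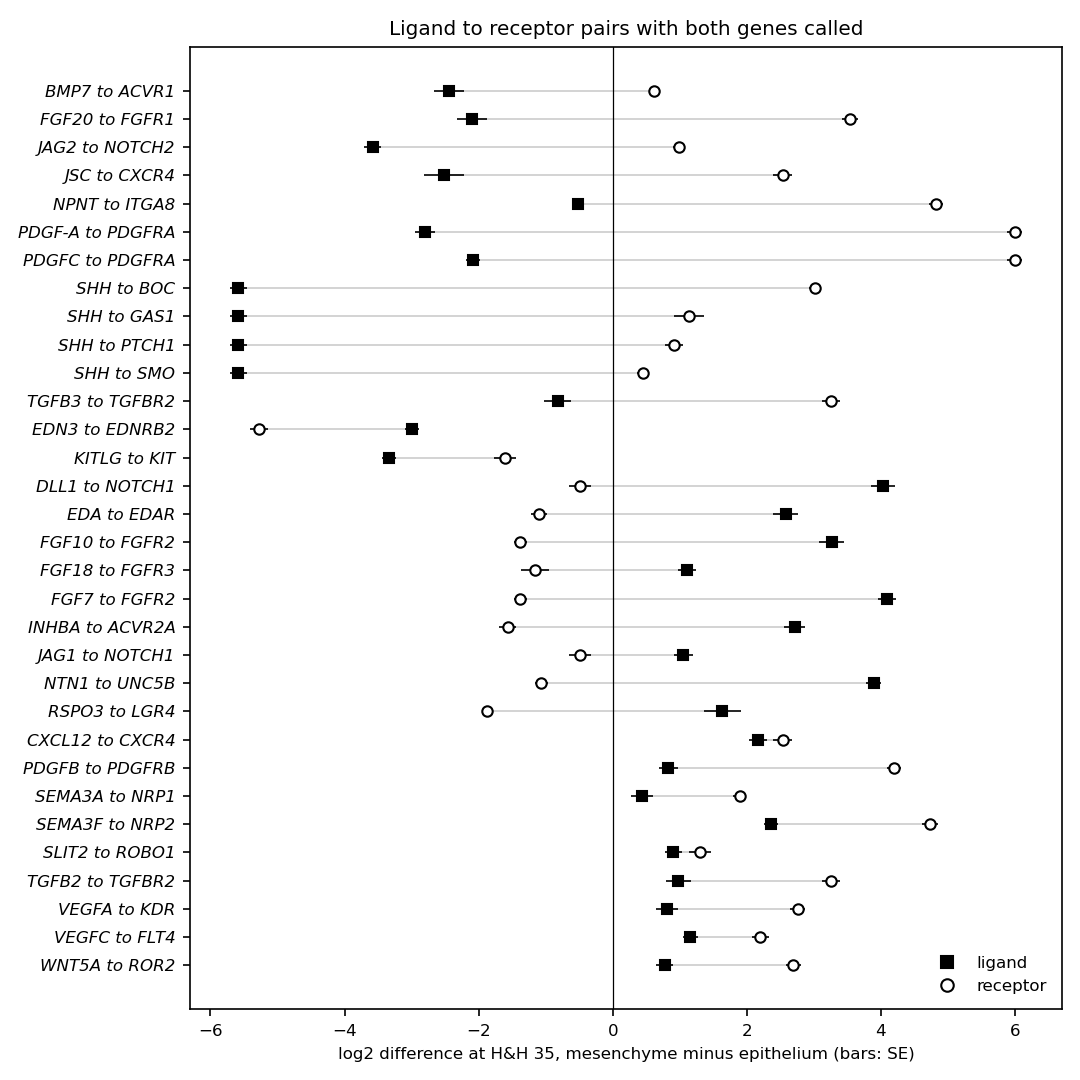
Log2 difference at H&H 35 (x axis, mesenchyme minus epithelium, with the SE as bars) of ligands (filled squares) and receptors (open circles) in 32 of the 33 pairs with both genes called. The top 12 pairs have the ligand left and the receptor right of 0, and the 9 pairs from DLL1 with NOTCH1 to RSPO3 with LGR4 the reverse. SMO, a signal transducer, is drawn as a receptor of SHH. The call of NOTCH1 depended on the scaling.

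Genes of retinoid metabolism and signaling were higher in mesenchyme in 9 of 13 cases and in epithelium in 3 (median 1.49). Over all genes the shares were 29.1% and 37.1%. ALDH6, a synonym of ALDH1A3 and a retinoic acid-making enzyme, stood at 99.9 and 85.8 RPKM in mesenchyme and 0.465 and 0.361 in epithelium (log2 difference 6.05, SE 0.107, adjusted p = 1.36e-09). CRABP-I, a retinoic acid carrier in the cytoplasm, stood at 132 and 96.0 RPKM in mesenchyme and 1.67 and 1.80 in epithelium (log2 difference 5.38, SE 0.213, adjusted p = 5.17e-08). STRA6, a receptor for the retinol carrier, stood at 51.0 and 29.6 RPKM in mesenchyme and 0.732 and 0.930 in epithelium (log2 difference 4.45, SE 0.218, adjusted p = 2.05e-07). Both mesenchyme libraries were far above both epithelium libraries in all 3. The degrading enzyme CYP26B1 was on the same side (3.15). CRABP2, the second carrier, was high in both layers and higher in epithelium, at 323 and 310.5 RPKM in epithelium and 207 and 111 in mesenchyme (log2 difference -1.06, SE 0.228, adjusted p = 0.00272). The receptor RARB differed by -0.75.

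HOX genes, which give the position along the body, differed by cluster. Of 21 tested, 12 were higher in mesenchyme, 4 in epithelium and 5 not called (median 0.76), beside 29.1% and 37.1% of all genes. All 6 HOXB genes tested, HOXB2 to HOXB6 and HOXB9, were higher in mesenchyme, with differences from 1.90 to 3.36. HOXB5 stood at 22.6 and 21.7 RPKM in mesenchyme and 1.81 and 2.60 in epithelium (log2 difference 2.86, SE 0.150, adjusted p = 3.14e-07). HOXD3 stood at 17.0 and 18.5 RPKM in epithelium and 2.93 and 2.91 in mesenchyme (log2 difference -2.26, SE 0.110, adjusted p = 1.94e-07). The first was thus low in epithelium and the second low in mesenchyme. HOXA4 (-0.21), HOXA5 (-0.07), HOXA6 (-0.16) and HOXA7 (-0.01) were about level between the layers and not called, except HOXA4 without batch I mesenchyme (-0.40).

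Of 11 connexins and pannexins, 6 were higher in mesenchyme and 4 in epithelium (29.1% and 37.1% of all genes, median 0.81), and of 23 calcium channel and store genes 11 and 5 (median 0.30), with 3 in epithelium when the batch II epithelium library was left out. GJB6, a beta connexin of skin, was epithelial, at 26.7 and 44.0 RPKM in epithelium and 0.404 and 0.376 in mesenchyme (log2 difference -4.67, SE 0.197, adjusted p = 7.69e-08). The T-type channel CACNA1G stood at 7.13 and 8.03 RPKM in mesenchyme and 0.140 and 0.121 in epithelium (log2 difference 2.92, SE 0.125, adjusted p = 8.22e-08). No values overlapped between the layers in either gene.

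Genes of the cell cycle were higher in epithelium without exception: 34 of 34 were called on that side, as 37.1% of all genes were. The median difference was -1.09, with a range from -1.65 to -0.61. In 22 of the 34 the difference was at least 1, where 10.5% of all genes had such a difference on that side. PCNA, the sliding clamp of DNA replication, stood at 332 and 294 RPKM in epithelium and 131 and 127 in mesenchyme (log2 difference -1.27, SE 0.0797, adjusted p = 9.99e-07). CDC2, a synonym of CDK1 for the kinase that drives mitosis, stood at 244 and 212 RPKM in epithelium and 92.6 and 95.6 in mesenchyme (log2 difference -1.26, SE 0.0819, adjusted p = 1.22e-06). TOP2A, the topoisomerase of chromosome condensation, stood at 106 and 122 RPKM in epithelium and 45.9 and 64.1 in mesenchyme (log2 difference -1.06, SE 0.143, adjusted p = 1.57e-04). In each of the 3, both epithelium libraries were above both mesenchyme libraries. RRM2 and TYMS of nucleotide synthesis, CDT1 and CDC6 of replication licensing had the largest differences, at -1.65, -1.63, -1.52 and -1.50. Summed over the list, epithelium held 2511 and 2269 RPKM and mesenchyme 982 and 1099. At H&H 31 the order was the opposite, with 1472 and 1423 RPKM in epithelium and 1970.4 and 2002 in mesenchyme and a median difference of 0.48. There, 25 of the 34 were higher in mesenchyme, where 29.7% of all genes were, and 9 were not called. The change between stages was called in all 34 toward epithelium (33 with equal library sums), where 23% of all genes had such a call, with values from -1.94 to -0.84. For PCNA it was -1.44 (SE 0.113, adjusted p = 2.99e-05). Housekeeping genes also had a called change toward epithelium in 12 of 17 cases, with a median difference of 0.20 at H&H 31 and -0.15 at H&H 35, and their part in the change was not tested. Their count was 6 without batch I of H&H 31 epithelium, and 7 without batch II of H&H 31 mesenchyme or batch I of H&H 35 epithelium.

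**Figure D5:**
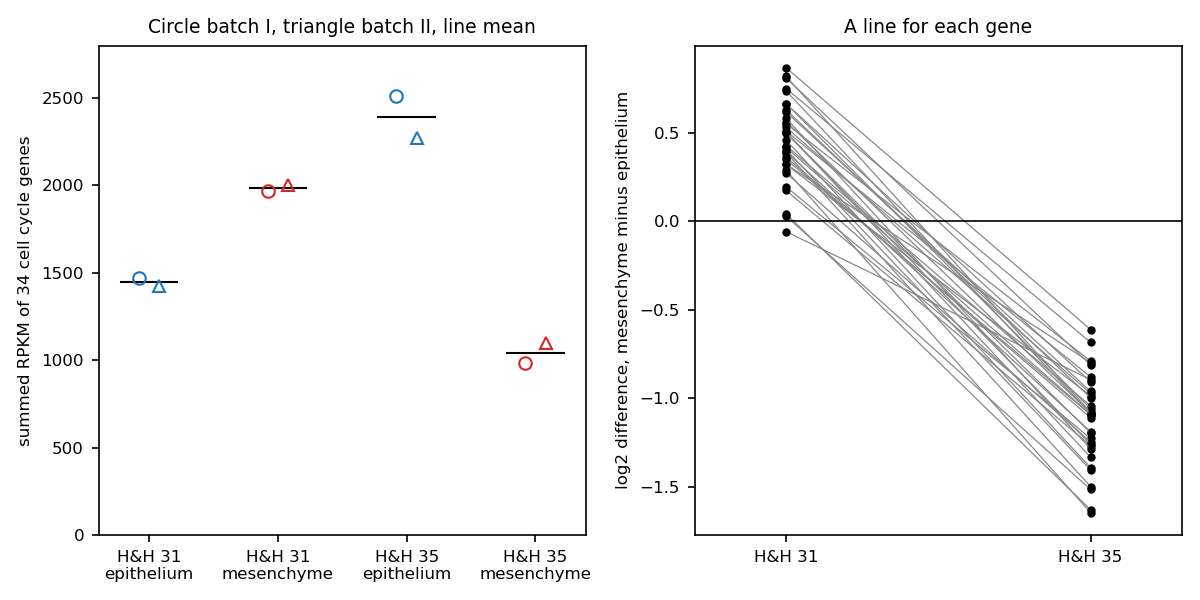
Left, summed RPKM of the 34 cell cycle genes in each of the 8 libraries (blue epithelium, red mesenchyme, line at the mean of 2 libraries). Right, the log2 difference of each of the 34 genes at H&H 31 and at H&H 35, joined by a line. Every line falls, and at H&H 35 every gene lies below 0.

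Markers of other cell types were laid out across both layers. All 14 melanocyte genes tested were higher in epithelium (37.1% of all genes were), with a median of -3.18. Their summed levels were 458 and 527 RPKM in epithelium against 22.4 and 19.4 in mesenchyme. MLANA, a melanosome protein, stood at 171 and 198 RPKM in epithelium and 4.43 and 3.12 in mesenchyme (log2 difference -5.29, SE 0.167, adjusted p = 1.46e-08). TYRP1, an enzyme of melanin synthesis, stood at 67.1 and 97.0 RPKM in epithelium and 1.07 and 0.380 in mesenchyme (log2 difference -5.60, SE 0.309, adjusted p = 4.35e-07). MITF, the factor that specifies the lineage, stood at 22.7 and 27.0 RPKM in epithelium and 4.68 and 5.29 in mesenchyme (log2 difference -2.11, SE 0.112, adjusted p = 3.42e-07). MITF was thus the gene of these with most signal in mesenchyme. None of the 14 was at 0 in mesenchyme.

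Endothelial and mural genes were mesenchymal, the side on which 29.1% of all genes were called. All 16 endothelial genes were higher in mesenchyme (median 3.57), with summed levels of 345 and 306 RPKM against 3.17 and 3.59 in epithelium. With such low sums in epithelium, most of these genes passed the filter through mesenchyme only, so their count alone is not evidence of a difference. CDH5, VE-cadherin, stood at 75.2 and 68.2 RPKM in mesenchyme and 0.273 and 0.265 in epithelium (log2 difference 5.84, SE 0.113, adjusted p = 1.54e-09). SOX18, a factor of vessels, stood at 67.5 and 71.1 RPKM in mesenchyme and 0.407 and 0.354 in epithelium (log2 difference 5.67, SE 0.114, adjusted p = 1.93e-09). KDR, the main receptor of vascular endothelial growth factor, stood at 6.26 and 5.69 RPKM in mesenchyme and 0.0253 and 0.0362 in epithelium (log2 difference 2.76, SE 0.113, adjusted p = 6.29e-08). Epithelium held at most 0.407 RPKM of each. All 12 genes of smooth muscle and pericytes were also higher in mesenchyme (median 3.05), with sums of 280.0 and 229 RPKM against 12.2 and 13.5. ACTG2 stood at 113 and 88.1 RPKM in mesenchyme and 0.445 and 0.328 in epithelium (log2 difference 6.19, SE 0.262, adjusted p = 7.82e-08). MYOCD, myocardin, a coactivator of smooth muscle genes, stood at 19.1 and 19.7 RPKM in mesenchyme and 0.0982 and 0.267 in epithelium (log2 difference 4.11, SE 0.138, adjusted p = 1.94e-08). In ACTG2 the batch I mesenchyme library was the higher, and both were far above the epithelium. At H&H 31 the mural median was 0.75, and the difference grew by a called amount in 9 of 12, where 19.4% of all genes did. MYOCD stood at 0.683 and 0.753 RPKM in epithelium and 0.271 and 0.547 in mesenchyme at that stage, a change of 4.41 (SE 0.195, adjusted p = 3.43e-06).

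The blood cell genes tested were low and mostly mesenchymal, beside 29.1% of all genes higher in mesenchyme and 37.1% in epithelium. Of 12 leukocyte genes, 10 were higher in mesenchyme, 1 in epithelium and 1 not called, with sums over the 14 in the table of 144 and 88.2 RPKM in mesenchyme and 22.01 and 22.3 in epithelium. CSF1R, the receptor of macrophage growth factor, stood at 14.8 and 10.3 RPKM in mesenchyme and 0.149 and 0.171 in epithelium (log2 difference 3.53, SE 0.163, adjusted p = 1.39e-07). CD3E, a T cell receptor chain, was the gene on the other side, at 4.81 and 5.45 RPKM in epithelium and 0.351 and 0.413 in mesenchyme (log2 difference -2.15, SE 0.122, adjusted p = 5.24e-07). The batch I mesenchyme library held more leukocyte RNA than batch II, by the sums above. Of 21 red cell genes listed, only 9 were tested, and the level of the others, several globins among them, is not given. Of the 9, 8 were higher in mesenchyme. KLF1, an erythroid factor, was higher in epithelium at 7.37 and 6.10 RPKM in epithelium and 1.80 and 1.62 in mesenchyme (log2 difference -1.51, SE 0.182, adjusted p = 7.44e-05). The hemoglobin genes share near-identical copies, and how reads were divided among them is uncertain.

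Striated muscle set the mesenchyme libraries apart from each other. Over the 17 genes of that list in the table, of which 6 were tested, the sum was 95.2 and 11.3 RPKM in the batch I and II mesenchyme libraries and 18.1 and 12.6 in epithelium. ACTA1, skeletal actin, stood at 23.4 and 6.24 RPKM in mesenchyme and 5.61 and 4.79 in epithelium and MYL1, a myosin light chain, at 10.3 and 0.124 RPKM in mesenchyme and 0.0820 and 0.0503 in epithelium, and neither was called (1.10, SE 0.449, and 1.74, SE 0.805). TNNC1, a troponin, was called, at 10.5 and 3.15 RPKM in mesenchyme and 0.505 and 0.682 in epithelium (log2 difference 2.12, SE 0.398, adjusted p = 0.00124). Batch I mesenchyme was the highest library in all 3 genes. Without the batch II mesenchyme library ACTA1 differed by 1.98 and MYL1 by 3.41 and both were called, as they were with the batch as a block within the stage (adjusted p = 0.0185 and 0.0409). Of 11 neural and glial genes, 5 were higher in mesenchyme and 4 in epithelium, beside 29.1% and 37.1% of all genes. NGFR, the neurotrophin receptor of nerve sheaths, stood at 23.9 and 27.9 RPKM in mesenchyme and 0.0572 and 0.109 in epithelium (log2 difference 4.63, SE 0.129, adjusted p = 7.92e-09), and PMP22, a myelin protein, at 82.9 and 99.4 RPKM in mesenchyme and 4.99 and 4.97 in epithelium (log2 difference 3.94, SE 0.121, adjusted p = 1.28e-08). NEFM, a neurofilament of axons, stood at 4.99 and 5.49 RPKM in epithelium and 0.187 and 3.93 in mesenchyme (log2 difference -1.37, SE 0.507, adjusted p = 0.0392), with batch II mesenchyme close to the epithelium and batch I not. Without the batch I mesenchyme library it differed by -0.34 and was not called, and the call was lost without any 1 of 6 other libraries (-1.31 to -1.42).

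Housekeeping genes differed less often than most genes but were not level. Of 17 tested, 10 were not called, 6 were higher in epithelium and 1 in mesenchyme, with a median of -0.15 beside -0.10 over all genes. Of all genes, 66.2% were called, 37.1% in epithelium and 29.1% in mesenchyme. With equal library sums 6 were higher in epithelium and 2 in mesenchyme (median -0.03), and with scaling by median ratios 4 and 1 (median -0.06). EEF1A, the elongation factor of translation, was not called, at 5858 and 5704 RPKM in epithelium and 5488 and 5307 in mesenchyme (log2 difference -0.10, SE 0.128, adjusted p = 0.519). TFRC, the transferrin receptor that brings iron into dividing cells, departed from the rest, at 67.4 and 61.5 RPKM in epithelium and 12.8 and 11.8 in mesenchyme (log2 difference -2.30, SE 0.125, adjusted p = 3.99e-07).

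At H&H 31 the same test called 6401 of the 11155 genes (57.4%), 3309 (29.7%) in mesenchyme and 3092 (27.7%) in epithelium. The mesenchymal markers stood in the H&H 31 epithelium libraries at a median of 6.815% and 4.512% of their level in mesenchyme, above the shares at H&H 35, and the part of this in the changes between stages was not tested. Between the stages, 4312 genes were called in the same direction at H&H 31 and H&H 35, 2245 in mesenchyme and 2067 in epithelium, 2486 were called at H&H 35 only and 1500 at H&H 31 only. A gene called at 1 stage only is not shown to differ between the stages. The change of the difference itself was tested as an interaction and called for 4730 genes (42.4%), toward mesenchyme in 2166 (19.4%) and toward epithelium in 2564 (23%). A total of 589 genes were called in opposite directions, 377 from mesenchyme at H&H 31 to epithelium at H&H 35 and 212 the other way. NID1, the basement membrane linker, turned from 211 and 206 RPKM in epithelium and 49.3 and 56.6 in mesenchyme at H&H 31 to 40.6 and 57.0 RPKM in epithelium and 163 and 140.4 in mesenchyme at H&H 35, a change of 3.59 (SE 0.210, adjusted p = 9.60e-06). TNC, tenascin C, turned from 7.67 and 11.7 RPKM in epithelium and 2.70 and 2.73 in mesenchyme to 9.88 and 12.3 RPKM in epithelium and 41.8 and 46.7 in mesenchyme, a change of 3.41 (SE 0.247, adjusted p = 2.13e-05). Both were epithelial at the earlier stage and mesenchymal at the later in every library. PODN, a proteoglycan of the lumican family, lost most of a mesenchymal lead, from 1.80 and 2.19 RPKM in epithelium and 137 and 123 in mesenchyme to 4.79 and 4.70 RPKM in epithelium and 7.91 and 11.2 in mesenchyme, a change of -4.60 (SE 0.208, adjusted p = 3.82e-06). NDNF, a secreted neuron-derived factor, was level at H&H 31 (7.89 and 6.24 RPKM in epithelium and 6.66 and 8.32 in mesenchyme) and mesenchymal at H&H 35 (0.966 and 1.27 RPKM in epithelium and 53.0 and 53.9 in mesenchyme). POSTN, named above, was mesenchymal at both stages by different margins, with 1.19 and 1.60 RPKM in epithelium and 189 and 207 in mesenchyme at H&H 31 and a change of -3.94 (SE 0.250, adjusted p = 1.31e-05). Across the 11155 genes the differences at the stages correlated at Pearson r of 0.7803 and Spearman rho of 0.639. This is a description over genes, measured in libraries with the same batch labels and preparation.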

How the data were processed

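Total RNA (4 µg a sample, by Trizol) went through an unstranded poly(A) library kit and 50-base single-end sequencing, so overlapping and antisense genes cannot be told apart. The authors trimmed the reads and aligned them with TopHat2 in Partek Flow to galGal4. The values deposited by the authors are RPKM per gene, not counts. The tool versions are not given in the sources used here. In the table, 22 gene names had been turned into dates and name no gene.

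Here log2(RPKM + 1) of the 11155 genes with at least 1 RPKM in at least 2 libraries was fitted in limma 3.58.1 (R 4.3.3) with 4 group means and a variance prior that follows the mean. Adjusted p is Benjamini-Hochberg over all 11155 genes, and a gene was called below 0.05. The code was tested on simulated data. Each log2 difference is mesenchyme minus epithelium on the log2(RPKM + 1) scale, which understates low genes. No read counts were used, so no counting interval is given.

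The labels call the replicate number a batch, which pairs libraries of the same number. The correlation of their deviations from the group means was 0.316 between the H&H 35 tissues and ranged from -0.184 to 0.194 for the other 5 pairs of groups. The fit held no block, and fits with a block were alternatives. The others changed the pseudocount, filter, scaling, variance model, call rule or libraries.

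Genes were named by rule: the 20 largest called differences each way (symbol, at least 5 RPKM in the higher tissue, no overlap), up to 4 called members each way and 3 not called of each of 37 gene lists, up to 6 genes each with calls in opposite directions at the stages or the largest interactions, and ligand and receptor pairs. Beyond the rule, 52 list members were named for their roles after their values were seen. The members and the lists were chosen with earlier results of these data known. Some genes are not reported here by name, though they stay in the fits and counts.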

Additional observations from a re-analysis of the deposited data

Results flagged for a closer look

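In 4730 genes the difference between the layers was not the same at H&H 31 and H&H 35 by the test of the interaction with stage in limma, at an adjusted p under 0.05. Of these genes, 589 were called in opposite directions at the 2 stages. All 34 cell cycle genes tested had a called negative interaction (33 with equal library sums), where 23% of all genes did. Their difference thus moved toward epithelium. So did that of 12 of 17 housekeeping genes, and their part in the change was not tested.

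Among the named genes called at H&H 35 and chosen for the size of the interaction (log2, H&H 35 minus H&H 31) or for calls in opposite directions, it was positive for F10 (5.04), CPZ (4.96), MASP1 (4.71), NDNF (4.61), MYOCD (4.41), THSD4 (3.85), NID1 (3.59) and TMEM59L (3.38). It was negative for PODN (-4.60), NECAB1 (-4.07), FGFBP1 (-3.99), POSTN (-3.94), PSCA (-3.90) and CPA6 (-3.89). ADAMTS17, not called at H&H 35, had an interaction of 5.004. Groups of 2 libraries allowed no test for a single library far from the others.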

How the results depend on the processing

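The calls changed most with the call rule. With a log2 difference of at least 1 required as well, 1706 genes were higher in mesenchyme, 1175 in epithelium and 1789 differed between the stages, against 3243, 4144 and 4730. Every other alternative stayed within 1.5 times of these counts, and no named gene changed direction past the threshold. With each of the 8 libraries left out in turn, the counts ranged from 2889 to 3161, from 3632 to 4002 and from 3651 to 4636. With the batch number as a replicate block they were 3248, 4139 and 4664, and with the block within each stage 3467, 4520 and 5586. The block changed no call of a named gene other than those of ACTA1, MYL1, TNFRSF19, GATA2 and ID2. With equal library sums the direction of the majority turned (3630 against 3369).

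Of 269 named genes, 243 kept their call in the 20 alternatives that used the same call rule, and 26 lost or gained it in at least 1. Each gene's own variance ended 14 calls, BMP2, CRABP2, KLF4 and TGFB3 among them in this setting alone. Leaving out batch II of H&H 35 epithelium ended 12 calls. The interaction could not be fitted with the H&H 35 libraries alone. With 2 libraries a group, the p-values rest on a spread estimated over all 4 groups.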
